A study of Mus musculus with 2 samples.

Results

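Kinesins are motor proteins that walk along microtubules, most of them towards the plus end, which in axons points away from the cell body. Cytoplasmic dynein walks the other way and needs the dynactin complex to move cargo over long distances. Neurons rely on both for carrying vesicles, mitochondria and signalling endosomes along axons and dendrites, whereas a separate set of kinesins builds and moves the mitotic spindle in dividing cells. The genes described here are the kinesins, kinesin light chains, cytoplasmic dynein subunits and dynactin subunits, chosen by symbol and a protein-coding annotation in GENCODE M21. There were 69 of them among 21474 protein-coding genes and 43346 annotated genes in the quantifications. By known role they comprised 17 transport kinesins, 4 kinesin light chains, 13 mitotic kinesins, 6 kinesins of cilia, 7 other kinesin-named genes, 5 dynein-1 subunits (heavy, intermediate and light intermediate chains), 2 dynein-2 subunits, 9 dynein light chains and 6 dynactin subunits.

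The tissue came from C57BL/6J mice at an age of 8 weeks and was frontal cortex with no treatment named in the labels, sequenced as poly(A)-selected, rRNA-depleted RNA above 200 nt in 2 biological replicates of 1 group. No conditions are contrasted, and the data give levels in this tissue and the difference between 2 libraries. An exact sign-flip test over 2 libraries cannot go below 0.5, and no p-value was computed. Levels are TPM, a share of all transcripts adjusted for their length, given per library or as mean ± SD (n = 2). The whole tissue was extracted, so fewer cells of a type and less RNA per cell cannot be told apart.

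The libraries did not match their labels in 1 respect. The labels describe pooled males and females, but Xist, expressed from the inactive X chromosome of females, had 0.25 TPM in replicate 1 and 110 TPM in replicate 2. The 4 Y-linked genes measured showed the reverse, for example Eif2s3y with 53.8 TPM in replicate 1 and 0.05 TPM in replicate 2. Sex therefore cannot be told apart from replicate number in any difference between the libraries given here. Markers of cortical cells were present in both libraries, with 8 of 8 markers at 1 TPM or more in each of the excitatory neuron, inhibitory neuron, astrocyte, oligodendrocyte and microglia lists. The libraries held 106084891 and 90476207 expected counts (estimated fragments), of which the 69 genes took 1070582 and 862513, or 1.01% and 0.953%. For 63 of the 69 genes the deposited posterior SD of the count was 0, so their reads were assigned with no sharing between genes. The other 6 (Dynlt1a, Dynlt1b, Dynlt1c, Dynlt1f, Kifc1 and Kifc5b) are near-identical copies that share reads, and the split between them carries some uncertainty. Its deposited posterior SD was 2.82 to 3.42 counts for Kifc1 and Kifc5b and 7.79 to 20.1 counts for the Dynlt1 copies.

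Motor genes of axonal and dendritic transport lay above the detection threshold of 1 TPM in adult cortex, whereas most spindle motors lay below it. At 1 TPM or more in both libraries stood 52 of the 69 genes (75.4%), against a background of 60.7% of all protein-coding genes. All 17 transport kinesins, all 4 light chains and all 22 dynein and dynactin genes were detected by this criterion, but of the 13 mitotic kinesins it was met by Kifc1 and Kifc5b alone. Those are the copies that share reads. Kif12 and Kif2b had no counts in either library, where a count of 0 allows up to 3 counts, and Kif28 had 15 and 4 counts.

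**Figure D1:**
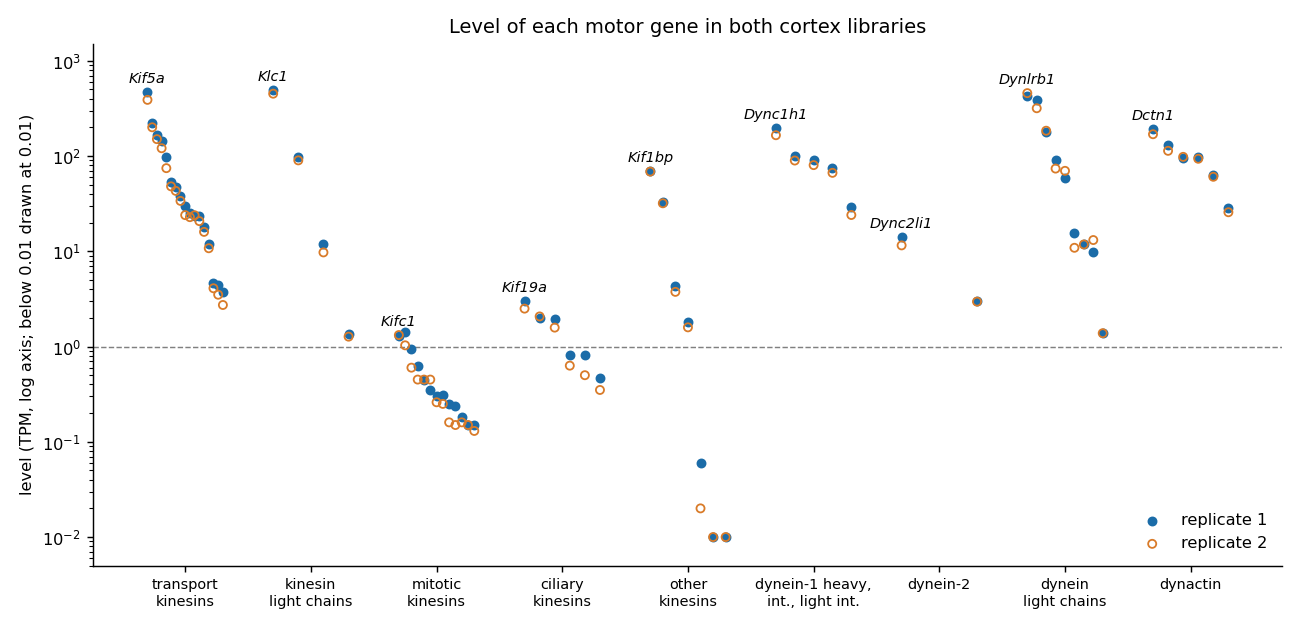
Level of each of the 69 genes (TPM, log axis) by class, ordered within a class by mean level, with filled points for replicate 1 and open points for replicate 2. The dashed line marks 1 TPM, above which all 17 transport kinesins lie, while 11 of 13 mitotic kinesins lie below it in at least 1 library.

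The median level of the 17 transport kinesins was 29.7 TPM in replicate 1 and 24.0 TPM in replicate 2, against 0.31 and 0.26 TPM for the 13 mitotic kinesins. The groups, listed with earlier results of these data known, did not overlap in either library. Kif2a, a relative of the mitotic Kif2c, was placed in neither group and had 33.3 and 31.9 TPM. The lack of overlap thus depends on which genes were listed. The lowest transport kinesin, Kif16b, a motor of early endosomes, had 3.70 and 2.73 TPM, whereas the highest mitotic value was 1.41 TPM in replicate 1 (Kifc5b) and 1.32 TPM in replicate 2 (Kifc1). On the log2(TPM + 0.01) scale the transport median exceeded the mitotic median by 6.50 ± 0.05 (SD, n = 2). Summed levels were 1382 and 1188 TPM for transport kinesins, against 6.66 and 5.56 TPM for mitotic kinesins, a ratio of 207 in replicate 1 and 214 in replicate 2.

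Among the mitotic kinesins, Kif22, a chromokinesin, had 0.95 and 0.60 TPM from 146 and 83 counts. Kif11, the motor that pushes spindle poles apart, had 0.63 and 0.45 TPM from 240 and 156 counts. Kif4, another chromokinesin, had 0.45 TPM in each library, and Kif23, which acts at the spindle midzone in cytokinesis, had 0.35 and 0.45 TPM. Kif14, lowest by mean TPM, had 0.15 and 0.13 TPM from 111 and 84 counts, with deposited intervals that lie wholly above these TPM. The fewest counts among the 13 were 40 and 30, in Kif2c. Of 20 proliferation genes listed beside them (such as Mki67, Top2a and Cdk1), 9 reached 1 TPM in both libraries, and the list summed to 24.9 and 23.7 TPM. The 7 neuroblast genes (such as Dcx and Sox11) all reached 1 TPM and summed to 527 and 519 TPM, of which Tubb3, also a gene of mature neurons, took 345 and 337 TPM. Next in that sum was Dlx1 with 93.2 and 97.8 TPM. Dcx had 25.6 and 25.9 TPM and Sox11 6.44 and 5.82 TPM. The part of dividing cells or neuroblasts in the level of the mitotic kinesins was not tested.

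The promoters of the spindle motors shared a short sequence that 1 of the transport motors examined held. RefSeq promoter windows (GRCm38.p6, 250 bases before to 50 after the start) matched 51 of the 69 genes, including 11 transport and 12 mitotic kinesins. The 6 letters TTTGAA, read on either strand (TTCAAA), are those of the cell cycle homology region, an element known from genes transcribed in late cell cycle. The windows of 2 transport kinesins and 4 mitotic kinesins are shown because they carry this contrast, each in the direction of transcription with every TTTGAA or TTCAAA in capitals. They lie at chr2:49619036-49619335 (plus strand, Kif5c), chr11:53567119-53567418 (plus strand, Kif3a), chr19:37376132-37376431 (plus strand, Kif11), chr7:127042371-127042670 (minus strand, Kif22), chr9:61946750-61947049 (minus strand, Kif23) and chrX:100625815-100626114 (plus strand, Kif4).
Kif5c: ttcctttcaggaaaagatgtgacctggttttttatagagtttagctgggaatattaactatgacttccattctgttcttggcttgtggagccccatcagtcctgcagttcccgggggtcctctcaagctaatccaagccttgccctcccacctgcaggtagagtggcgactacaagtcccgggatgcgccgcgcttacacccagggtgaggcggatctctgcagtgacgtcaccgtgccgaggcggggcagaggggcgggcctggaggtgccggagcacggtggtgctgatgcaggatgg
Kif3a: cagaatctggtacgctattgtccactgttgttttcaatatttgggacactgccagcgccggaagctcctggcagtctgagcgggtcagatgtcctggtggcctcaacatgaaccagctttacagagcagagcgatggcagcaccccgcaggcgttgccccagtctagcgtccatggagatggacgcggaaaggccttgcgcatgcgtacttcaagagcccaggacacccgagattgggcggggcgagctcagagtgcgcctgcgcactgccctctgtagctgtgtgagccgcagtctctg
Kif11: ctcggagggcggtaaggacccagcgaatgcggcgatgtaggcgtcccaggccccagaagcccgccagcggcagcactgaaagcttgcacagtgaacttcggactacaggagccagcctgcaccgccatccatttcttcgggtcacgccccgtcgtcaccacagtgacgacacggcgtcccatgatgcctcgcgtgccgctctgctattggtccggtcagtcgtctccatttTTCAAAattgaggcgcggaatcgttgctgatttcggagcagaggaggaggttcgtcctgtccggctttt
Kif22: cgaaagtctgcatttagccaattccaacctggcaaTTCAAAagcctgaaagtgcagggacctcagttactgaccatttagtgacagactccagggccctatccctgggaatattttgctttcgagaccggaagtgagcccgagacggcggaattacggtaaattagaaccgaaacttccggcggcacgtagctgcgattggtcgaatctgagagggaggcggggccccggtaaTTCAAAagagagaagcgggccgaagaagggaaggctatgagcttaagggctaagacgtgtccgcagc
Kif23: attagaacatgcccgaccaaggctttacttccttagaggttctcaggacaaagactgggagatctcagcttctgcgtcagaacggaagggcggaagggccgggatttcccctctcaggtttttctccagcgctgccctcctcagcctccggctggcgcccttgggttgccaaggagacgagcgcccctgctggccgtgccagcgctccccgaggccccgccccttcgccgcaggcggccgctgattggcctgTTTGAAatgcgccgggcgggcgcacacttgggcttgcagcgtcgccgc
Kif4: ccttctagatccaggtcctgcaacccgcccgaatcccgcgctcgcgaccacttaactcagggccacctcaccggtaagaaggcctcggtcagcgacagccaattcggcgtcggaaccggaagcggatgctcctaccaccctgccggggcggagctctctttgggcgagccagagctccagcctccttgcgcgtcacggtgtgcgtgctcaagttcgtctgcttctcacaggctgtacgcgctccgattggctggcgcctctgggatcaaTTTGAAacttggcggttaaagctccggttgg

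The letters occurred in 1 of 11 transport kinesin genes (9.09%), against 11 of 12 mitotic kinesin genes (91.7%) and 20.2% of 27025 genes with a promoter entry. The 1 transport gene was Kif1a, in 1 of its 2 entries. In 9 of the 12 mitotic genes (75%), and in 0 of the 11 transport genes, a match began within 30 bases of the start on either side, a placement found in 3.66% of all genes. Counting the first transcribed base as position 1 and the base before it as -1, matches began at -19 in Kif11 and Kif15, -17 in Kif22, 2 in Kifc1, 3 in Kif23, 4 in Kif18b and 20 in Kif4. Kif18a was the mitotic gene without a match. CCAAT, in either orientation (ATTGG), occurred in 3 of 11 transport genes and 8 of 12 mitotic genes, against 41.1% of all genes. Base composition also differed, with a median GC content of 69.3% in transport windows, 61.5% in mitotic windows and 52.8% in all windows. Mitotic windows thus held less GC than transport windows but more than all windows. The part of base composition in the motif counts was not tested. These 2 motifs were 2 of 10 searched on both strands, the others being TTTAAA (0 of 11 transport, 2 of 12 mitotic, 14.9% of all genes), TTCGAA (0, 0, 1.80%), TGACGTCA (2, 1, 2.03%), CGCGAAA (0, 0, 0.969%), TATAAA (1, 1, 15.7%) and GGGGCGGGG (4, 1, 12.9%), and 2 motifs of 10 letters whose letters are not printed here. Of these 2, a form of TGACGTCA with 2 more bases before it, each of whose matches contains one of the shorter form, occurred in 1 of 11 transport genes, 0 of 12 mitotic genes and 0.555% of all genes. The other, a palindrome known as the binding motif of NRF1, occurred in 0 of 11 transport genes, 0 of 12 mitotic genes and 1.07% of all genes. A match describes letters in a window and is not a measured binding site, and the comparison carries no test.

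Kinesin-1, the principal motor of fast axonal transport, was the most abundant kinesin in this tissue and was made up mostly of Kif5a. Kif5a, the neuronal heavy chain (ENSMUSG00000074657.4, chromosome 10, 127225696 to 127263348, minus strand, mm10), had 466 and 389 TPM, rank 137 among protein-coding genes by mean level. Kif5c, the other neuron-enriched heavy chain, had 145 and 121 TPM, and Kif5b, the ubiquitous one, had 47.3 and 43.1 TPM. The order Kif5a, Kif5c, Kif5b was the same in both libraries with gaps wider than the deposited intervals. Kif5a held 70.6 ± 0.30% of the summed heavy chain level, Kif5c 21.9 ± 0.12% and Kif5b 7.49 ± 0.43% (SD, n = 2). On the log2 TPM scale Kif5a exceeded Kif5b by 3.24 ± 0.09 and Kif5c by 1.69 ± 0.002.

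The light chains, which bind the heavy chain tail and link it to cargo, were led by Klc1. Klc1 had 494 and 451 TPM, the highest mean level of the 69 genes (rank 119), although Dynlrb1 was above it in replicate 2 and by protein-coding transcripts alone. Klc2 had 96.9 and 90.02 TPM. Klc4 had 11.9 and 9.73 TPM, and Klc3 was lowest with 1.35 and 1.27 TPM. Klc1 held 81.7 ± 0.04% of the light chain level and Klc2 16.2 ± 0.18%. Kif5a and Klc1 messages were close, Kif5a lower by 0.15 ± 0.09 on the log2 TPM scale. With coding transcripts alone the difference was -0.01 ± 0.08, within its spread.

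Kinesin-3 motors carry synaptic vesicle precursors and dense core vesicles. Kif1a, the neuronal member, had 168 and 150 TPM, and Kif1b, whose isoforms carry mitochondria or vesicles, had 97.8 and 74.6 TPM. Kif1c had 23.4 and 23.9 TPM, and the endosomal and vesicle motors Kif13a and Kif13b were far lower, with 4.62 and 4.09 TPM and with 4.41 and 3.50 TPM. Kif1a held 56.8 ± 1.69% of the level of the 6 kinesin-3 genes and Kif1b 30.6 ± 2.55%. The intervals of Kif13b and Kif13a overlapped in replicate 1 and were apart in replicate 2.

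Kinesin-2 motors work as a pair of different heavy chains, Kif3a with Kif3b or Kif3c, joined by the accessory protein Kifap3, while Kif17 pairs with itself. Kif3a had 53.8 and 48.0 TPM, Kif3c 37.98 and 33.8 TPM, Kif3b 17.9 and 16.0 TPM, and Kif17, known for carrying NMDA receptor vesicles in dendrites, 12.1 and 10.8 TPM. Kif3c thus stood above Kif3b in both libraries, and their sum was close to the level of Kif3a. The shares of the 4 genes in their sum differed between libraries by under 0.1 percentage points, with Kif3a at 44.2 ± 0.04%, Kif3c at 31.2 ± 0.04%, Kif3b at 14.7 ± 0.01% and Kif17 at 9.91 ± 0.01%. Kif3a and Kifap3 messages were nearly equal, Kif3a lower by 0.11 ± 0.04 on the log2 TPM scale.

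The second most abundant transport motor gene was Kifc2, a kinesin-14 with its motor domain at the C terminus, the kinesin family whose members walk towards the minus end. It had 221 and 200 TPM, rank 365 among protein-coding genes, against 25.3 and 22.8 TPM for its relative Kifc3. Kifc2 exceeded Kifc3 by 3.13 ± 0.002 on the log2 TPM scale and took 88.8 ± 0.04% of the summed kinesin-14 level. The kinesin-4 motors Kif21a and Kif21b had 29.7 and 24.0 TPM and 23.7 and 20.7 TPM. Kif21a was higher by 0.27 ± 0.08 on the log2 TPM scale, but by counts not divided by length the log2 difference was -0.28 ± 0.10, and with protein-coding transcripts alone it was 2.40 ± 0.15.

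**Figure D2:**
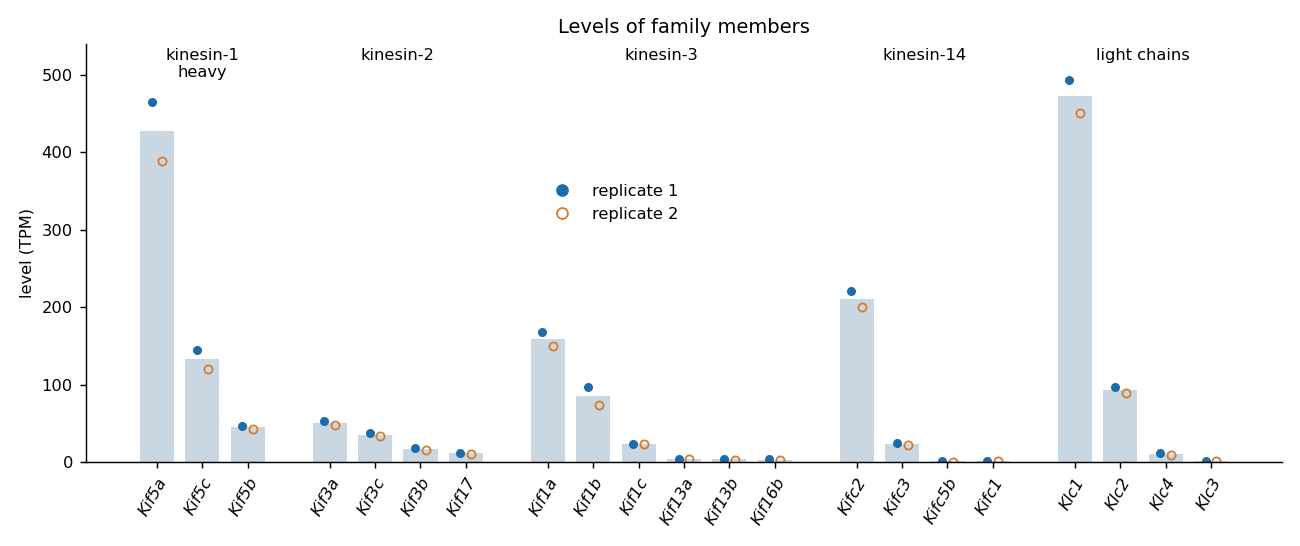
Levels (TPM) of the members of 4 kinesin families and of the kinesin light chains, with bars for the mean of 2 libraries and points for each library. Kif5a, Kif1a, Kifc2 and Klc1 lead their families in both libraries.

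Among the kinesins of cilia the highest was Kif19a, a regulator of cilium length, with 2.99 and 2.50 TPM. Kif9 had 2.01 and 2.07 TPM and Kif7, a kinesin of Hedgehog signalling, had 1.95 and 1.58 TPM. Kif6, Kif27 and Kif24 stayed below 1 TPM in both libraries, and Kif7 exceeded its paralog Kif27 by 1.45 ± 0.29 on the log2 TPM scale and by 0.74 ± 0.06 with a pseudocount of 1. Of the 6 ependymal genes listed as markers of ciliated cells, 4 reached 1 TPM, and the list summed to 12.8 and 18.1 TPM. The part of ciliated cells in the level of these kinesins was not tested.

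The remaining kinesin-named genes included Kif1bp, a binding partner of kinesin motors that is not itself a motor, with 69.1 and 68.6 TPM. Kif2a, which removes tubulin from microtubule ends and trims axon branches, had 33.3 and 31.9 TPM. Its mitotic relative Kif2c had 0.24 and 0.15 TPM, so that Kif2a exceeded it by 7.42 ± 0.44 on the log2 TPM scale, by 6.27 ± 0.04 from posterior mean TPM and by 4.81 ± 0.03 with a pseudocount of 1. The deposited intervals of Kif2c lie wholly above its TPM. Kif26a, known to lack ATPase activity, and its paralog Kif26b had 4.31 and 3.75 TPM and 1.83 and 1.59 TPM.

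Dynein-1 is the cytoplasmic motor for transport towards the cell body, and all 5 of its larger subunits were abundant. Dync1h1, the heavy chain that holds the motor, had 196 and 165 TPM. The intermediate chains, which join the motor to dynactin, had 100.1 and 89.7 TPM (Dync1i1) and 90.3 and 80.3 TPM (Dync1i2), and Dync1i1, the neuron-enriched one, was higher by 0.15 ± 0.01 on the log2 TPM scale. Of the light intermediate chains, which bind cargo adaptors, Dync1li2 had 74.3 and 66.6 TPM and Dync1li1 had 28.9 and 24.0 TPM. The dynein-2 genes, which serve transport inside cilia, were lower, with 14.1 and 11.5 TPM for Dync2li1 and 2.99 and 2.96 TPM for the heavy chain Dync2h1.

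The small light chains, which join the dynein tail and, for some of them, many other proteins, made up 27.7 ± 1.12% of the summed level of the 69 genes, beside 30.5 ± 1.14% for transport kinesins. Dynlrb1 had 430 and 457 TPM, against 1.38 TPM in each library for its paralog Dynlrb2. Dynll1, also called LC8, had 391 and 317 TPM, and Dynll2 had 178 and 184 TPM. Dynlt3, on the X chromosome, had 91.6 and 73.8 TPM. The 4 near-identical Dynlt1 copies on chromosome 17 summed to 95.6 and 105.7 TPM, of which Dynlt1b was assigned 63.5 ± 3.70%.

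All 6 dynactin subunits lay in a narrower range than the kinesins. Dctn1, the p150 subunit that binds microtubules and dynein, had 191 and 169 TPM, and Dctn2, dynamitin, which holds the complex together, had 132 and 113 TPM. Dctn6 had 95.5 and 98.0 TPM, Dctn3 98.3 and 93.6 TPM, and Dctn5 62.8 and 60.5 TPM. Dctn4 was lowest with 28.3 and 25.7 TPM. Dctn1 and Dync1h1 could not be separated at the gene level, with a log2 TPM difference of -0.002 ± 0.05.

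In all, 25 of the 28 gene pairs compared differed beyond their spread (the same sign in both libraries, a mean above its SD and deposited TPM intervals apart in both). The exceptions were Kif13b over Kif13a, Kif20b over Kif20a and Dctn1 over Dync1h1. By counts not divided by length, 5 of the 28 had the other sign. The pairs were chosen with earlier results known and no share over other gene pairs was taken. The count of 25 therefore does not set motor genes apart from other genes. Adaptors and regulators that work with these motors were present too. Of 45 listed, 44 reached 1 TPM in both libraries, led by Actr1b, an actin-related subunit of the dynactin filament, with 214 and 178 TPM. Next by mean level came Mapk8ip3 (JIP3), a scaffold between kinesin-1, dynein and cargo, with 185 and 160 TPM, and Arl8a, a GTPase of lysosome and synaptic vesicle precursor transport, with 175 and 168 TPM, higher than Mapk8ip3 in replicate 2. Fez1, a kinesin-1 adaptor, had 167 and 154 TPM, and Mapk8ip1 (JIP1) had 149 and 147 TPM.

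Gene levels hid how the message was divided among transcripts. Isoform use was read for the 26 genes that averaged 5 TPM or more and had 2 or more transcripts. In 11 of them (42.3%) the leading transcript took under 60% of the gene's TPM, against a background of 40.5% of such genes. In 4 (15.4%), transcripts annotated as protein-coding took under 50% of the gene's TPM, against a background of 12.4%. Both shares were near their backgrounds.

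For Dync1h1 the gene level and the coding level stood apart. Its coding transcript, of 14342 nt and 4644 residues, had 46.0 and 41.0 TPM, whereas a retained-intron transcript of 427 nt was assigned 114 and 95.8 TPM. The retained-intron transcript took 57.9 ± 0.07% of the gene's TPM from 2062 and 1514 counts, and the coding transcript 24.1 ± 0.99% from 53756 and 43465 counts. Counting coding transcripts alone, Dync1h1 stood at 43.5 ± 3.50 TPM, in place 22 among the 69 genes against place 7 by all transcripts. Dctn1 then exceeded Dync1h1 by 1.68 ± 0.05 on the log2 TPM scale. In Kif21b, a transcript annotated for nonsense-mediated decay took 73.8 ± 0.07% and the coding transcript 22.9 ± 1.04%. The annotated reading frame of the former holds 1639 residues, against 1624 in the latter. The coding level of Kif21b, and its comparison with Kif21a by coding transcripts, thus rests on this annotation. In Dctn6 the coding transcripts took 35.1 ± 5.17%, and in Dynlt1c, a copy that shares reads, 0.092 ± 0.13%.

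**Figure D3:**
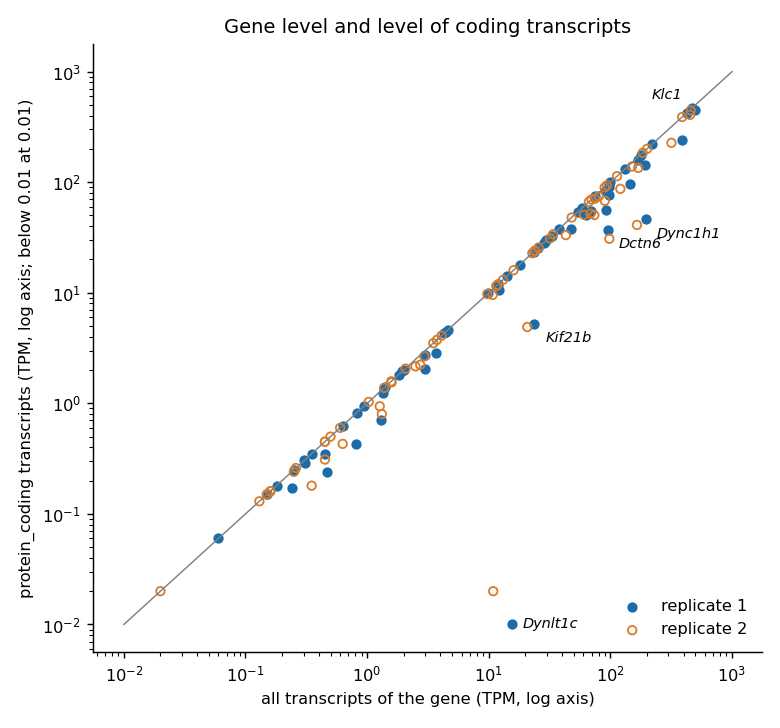
Level of the transcripts annotated as protein-coding against the level of all transcripts of each gene with reads in both libraries (TPM, log axes), with a line of equality, filled points for replicate 1 and open points for replicate 2. Dync1h1, Kif21b, Dctn6 and Dynlt1c lie below the line, with under 50% of their TPM in coding transcripts.

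Several genes divided their message between coding transcripts. Klc1 was split between transcripts coding for 542 residues (41.4 ± 0.85%), 560 residues (30.5 ± 1.12%) and 616 residues (15.04 ± 2.48%), which differ at the C-terminal end known to set cargo choice. Kif1b came mostly as the transcript of 1816 residues, with 75.9% in replicate 1 and 88.3% in replicate 2. Kif21a was led by a transcript of 1567 residues with 58.7 ± 1.78%, and Kif17 by one of 756 residues with 33.7 ± 3.25%, ahead of 29.3 ± 0.37% for 710 residues and 25.4 ± 2.25% for the longest, of 1038 residues. Dynll1 made the same protein of 89 residues from a transcript of 729 nt (41.7% and 37.1%) and one of 2030 nt (19.9% and 34.4%). The longer Dynll1 transcript was higher in replicate 2 and the shorter one lower.

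Alternative coding exons could be read where transcripts with and without the exon each had assigned reads. Transcripts with and without the exon also had to reach a mean of 5 TPM together. There were 11 such exons in 6 genes, included in 10 to 90% of the spanning TPM in both libraries. Of these, 8 had lengths that are multiples of 3 and keep the reading frame. No share over other genes was taken, so these counts do not set motor genes apart. The Kif17 exons of 154 and 557 nt are used together, so their single lengths do not decide the frame. The exons of dynein, dynactin, Kif1a and Kif2a are shown in capitals with 15 bases of flanking exon in lower case, from GENCODE M21 transcripts, because their use splits these genes into different proteins. On mm10 they lie at chr6:5784439-5784498 (plus strand, Dync1i1), chr2:71233649-71233708 and chr2:71227827-71227844 (plus strand, Dync1i2, 60 and 18 nt), chr6:83197319-83197333 (plus strand, Dctn1), chr1:93026832-93026855 (minus strand, Kif1a) and chr13:106969704-106969817 (minus strand, Kif2a).
Dync1i1, 60 nt: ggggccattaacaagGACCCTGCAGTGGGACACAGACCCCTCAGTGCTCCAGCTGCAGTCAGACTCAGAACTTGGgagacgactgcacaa
Dync1i2, 60 nt: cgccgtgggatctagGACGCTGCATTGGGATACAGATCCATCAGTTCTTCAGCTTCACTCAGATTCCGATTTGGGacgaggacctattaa
Dync1i2, 18 nt: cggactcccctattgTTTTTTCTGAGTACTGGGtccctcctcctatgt
Dctn1, 15 nt: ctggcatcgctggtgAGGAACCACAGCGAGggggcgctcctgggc
Kif1a, 24 nt: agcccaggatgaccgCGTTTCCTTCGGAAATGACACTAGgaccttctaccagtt
Kif2a, 114 nt: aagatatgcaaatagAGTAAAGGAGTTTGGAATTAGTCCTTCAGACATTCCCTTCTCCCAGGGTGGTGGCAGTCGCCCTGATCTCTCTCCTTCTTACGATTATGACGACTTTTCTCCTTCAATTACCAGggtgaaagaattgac

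The 60-nt exons of the paralogs Dync1i1 and Dync1i2 have the same length and are identical at 46 of 60 bases (76.7%) when aligned without gaps. The Dync1i1 exon was included in 60.9% of spanning TPM in replicate 1 and 53.6% in replicate 2, and the Dync1i2 exon in 81.8% and 84.4%. The order of the genes was the same in both libraries. The 18-nt exon of Dync1i2 was included in 56.9% and 49.6%. Dctn1's 15-nt exon was included in 63.0% and 59.9%, so transcripts holding it led in both libraries. The leading Dctn1 transcripts with and without it code for 1264 and 1142 residues and thus also differ outside this exon.

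In Kif1a, the 24-nt exon was included in 83.8% and 83.6%, while exons of 27 nt and 279 nt were included in 13.1 ± 0.22% and 12.8 ± 0.16%. The 27-nt and 279-nt exons are both part of a minor transcript coding for 1791 residues, which took 12.6 ± 0.13% of the gene's TPM, beside 78.0 ± 1.70% for the leading one of 1697 residues. Kif2a's 114-nt exon was included in 39.4% and 43.8%. In Kif17 the exons of 154 and 557 nt, both present in the same transcripts, were included in 66.9 ± 0.67%, and that of 121 nt in 28.8 ± 2.75%. These percents compare whole transcripts, which can also differ outside the exon. The leading Kif1a transcripts with and without the 24-nt exon had 8206 and 6141 nt. Those of Kif2a with and without the 114-nt exon had 2570 and 5304 nt. The split can thus rest on fragments outside the exon, and the deposited values give no count of those that cover it.

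**Figure D4:**
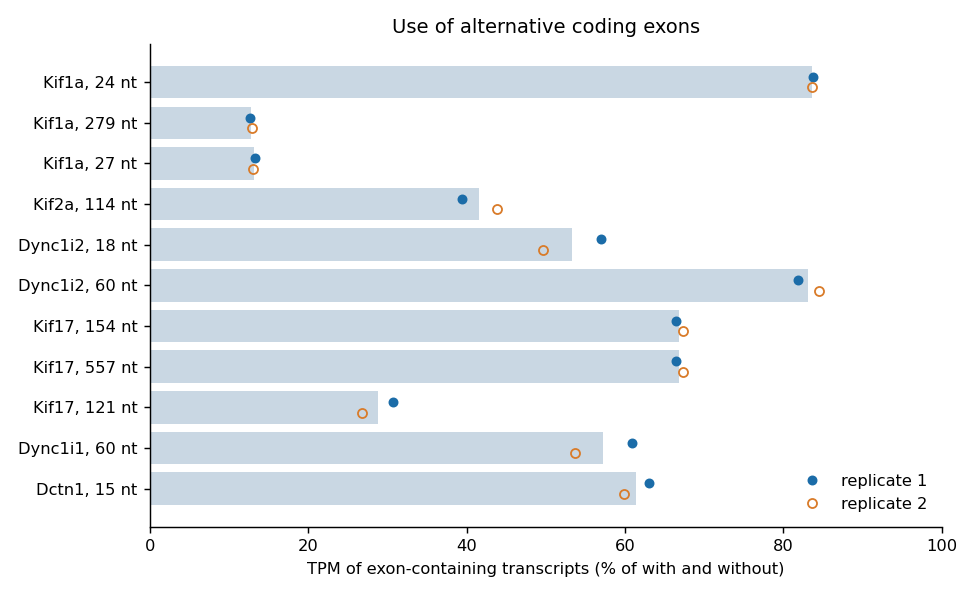
Use of 11 alternative coding exons of 6 genes, as the TPM of transcripts containing the exon in percent of those containing and skipping it, with bars for the mean of 2 libraries and points for each library. The 24-nt exon of Kif1a and the 60-nt exon of Dync1i2 lie above 80%, and the other exons of Kif1a below 15%.

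Between the libraries the motor genes differed about as often as other genes. The log2 ratio of replicate 2 over replicate 1 (CPM scaled by TMM, prior count 2) reached an absolute value of 0.5 in 1 of the 52 genes that averaged 1 TPM or more (1.92%), against a background of 3.19% of all such protein-coding genes. The 1 gene was Dynlt1a, a copy that shares reads, with a ratio of 0.51 and levels of 13.1 TPM (replicate 2) and 9.93 TPM (replicate 1). A ratio of -0.5 or less was found in 0 of the 52, against a background of 1.46%. The SD of the ratio was 0.15 over the 52 genes and 0.30 over all protein-coding genes, where a few large ratios such as those of Y-linked genes enter. The interquartile range over all protein-coding genes was -0.094 to 0.10. Of the 52, 33 (63.5%) were lower in replicate 2, against a background of 49.9%.

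The direction was not even across classes. Of the 17 transport kinesins, 16 were lower in replicate 2 with a median ratio of -0.04, from -0.25 in Kif16b to 0.18 in Kif1c, the exception. All 5 dynein-1 genes were lower (median -0.04), whereas 8 of 9 dynein light chains were higher (median 0.18) and 4 of 6 dynactin genes were higher (median 0.06). The light chains include the Dynlt1 copies, which share reads, and Dynlrb2, with 33 and 29 counts. Limits from counts (95%) on the ratio spanned 0 for Dynlrb2 and Dynlt1f. They also spanned 0 for the transport kinesins Kifc2, Kif5c, Kif3a, Kifc3, Kif3b, Kif17 and Kif13a. The same held for Dync1i1, Dync1li2 and Dctn4. Set against 0, the directions of the light chains and dynactin depend on the scaling, whereas those of transport kinesins and dynein-1 did not change under the settings tried. Set against the median of all protein-coding genes, each of these class medians kept its side in every setting. The difference from that median was 0.12 to 0.19 for light chains and 0.02 to 0.06 for dynactin. It was -0.04 for transport kinesins and -0.05 to -0.04 for dynein-1. With TPM and a pseudocount of 1 the medians were -0.16 for transport kinesins (16 of 17 lower), -0.17 for dynein-1 (5 of 5 lower), 0 for light chains (4 of 9 lower) and -0.10 for dynactin (5 of 6 lower), beside -0.12 for all protein-coding genes. For Dynlrb1, Dynll1 and Dynll2 the ratios were 0.20, 0.21 and 0.18. Dynlt3 was the light chain below 0, at -0.05. On the TPM scale Dynll1 ran the other way (391 TPM in replicate 1, 317 TPM in replicate 2), with an effective length of 692 nt in replicate 1 and 894 nt in replicate 2. The median of all protein-coding genes was 0.0005 on the CPM ratio and -0.13 on the TPM ratio, and nuclear protein-coding genes took 48.2% of all TPM in replicate 2 and 50.5% in replicate 1.

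Markers of cell types moved between the libraries as well. The oligodendrocyte list was higher in replicate 2 for 8 of 8 genes (median 0.37, summed level 2424 TPM in replicate 2 and 1998 TPM in replicate 1), and the microglia list was lower for 8 of 8 (median -0.44, 179 and 262 TPM). Mural markers were lower for 6 of 6 (median -0.42), and excitatory and inhibitory neuron markers had medians of 0.18 and 0.23. The part of cell composition in the class medians was not tested.

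**Figure D5:**
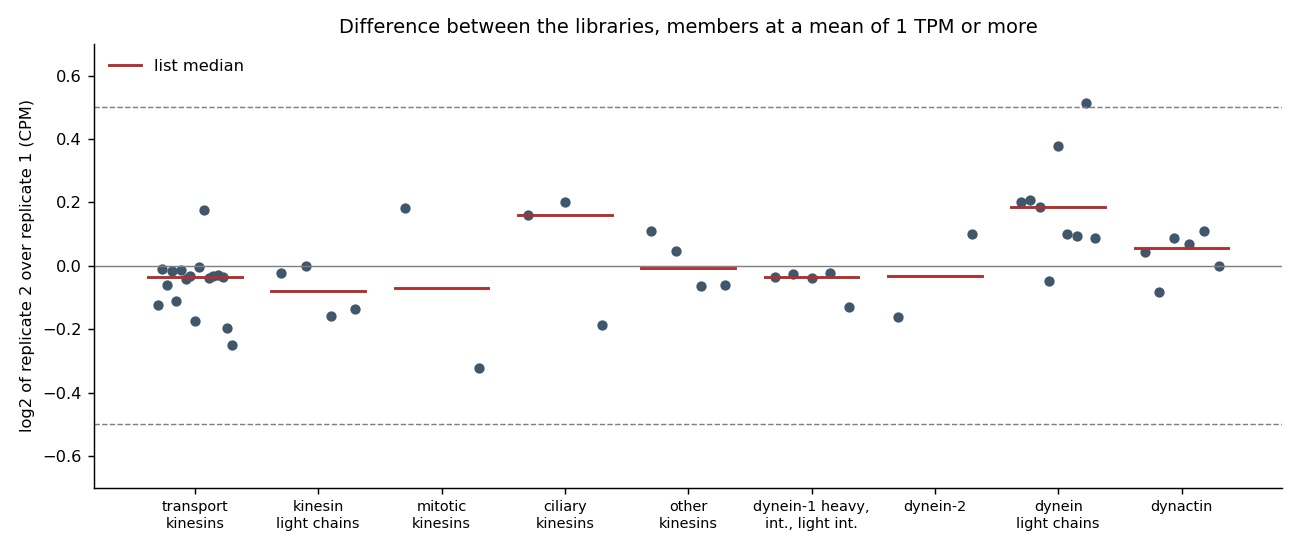
Log2 ratio of replicate 2 over replicate 1 (TMM-scaled CPM) of the 52 genes averaging 1 TPM or more, by class and ordered within a class by mean level, with a red line at each class median and dashed lines at 0.5 and -0.5. Dynlt1a at 0.51 lies beyond the dashed lines, and 16 of 17 transport kinesins lie below 0.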

How the data were processed

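Poly(A)-selected RNA was sequenced from both ends in stranded reads of 101 nt after spike-in RNAs were added, per the labels. For each library the authors deposited quantifications of genes and of transcripts, made on mm10 with annotation M4 according to the deposited description. The aligner is not given in the sources used here, nor is the quantifier. The deposited values used were expected counts (estimated, not whole, rounded for scaling), TPM, FPKM, TPM interval bounds at a level the files do not state, posterior means and SDs, and each transcript's percent of its gene's TPM. Some bounds leave out the deposited TPM. Whether the replicates are separate animals is not given beyond the labels' biological replicate numbers.

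Symbols, coordinates and transcript types came from GENCODE M21 by identifier without version. The 69 members, the gene lists, the pairs and the thresholds were chosen with earlier results of these data known. Each member may be named, with values for the leading genes of each class. A proliferation list, a neuroblast list and lists of excitatory and inhibitory neurons, astrocytes, oligodendrocytes and their precursors, microglia, endothelial and mural cells, ependyma and blood were set beside them. The ratio between libraries is the log2 of TMM-scaled CPM in replicate 2 divided by that in replicate 1 (edgeR 4.0.16, R 4.3.3) and a prior count of 2. The ratio script was tested on simulated counts. Exons were read from transcripts of the same length in both annotations. Alternatives covered thresholds, pseudocounts, posterior means, FPKM, counts, DESeq2 1.42.0 size factors and single libraries, and the use of coding transcripts alone or of the mitotic list without Kifc1 and Kifc5b was added after seeing the data. Reads carried no molecular identifiers and may be PCR copies, so limits from counts cover counting error only. Promoter windows were searched for 10 motifs.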

Additional observations from a re-analysis of the deposited data

How the results depend on the processing

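No paired analysis was possible because the series holds 1 group. The excess of the transport over the mitotic kinesin median kept its direction in 10 of 10 alternatives. Pseudocounts, single libraries and the removal of genes could not reverse it, because every transport kinesin lay above every mitotic one in each library. The excess was 4.43 with a pseudocount of 1, 6.12 with a pseudocount of 0.1, 5.85 from posterior mean TPM and 7.03 by CPM not divided by length. Without Kifc1 and Kifc5b it was 6.56, and in single libraries 6.47 to 6.54. Genes detected ranged from 39 (5 TPM) to 55 (0.5 TPM), with 52 in each single library. Pairs beyond their spread numbered 25 to 27, with 25 to 26 in single libraries, where the counts, posterior means and pseudocount used sign and SD alone. By counts not divided by length, the log2 difference was -0.73 for Kif3a over Kif3c, -0.28 for Kif21a over Kif21b, 0.19 for Kif20b over Kif20a, -0.56 for Dynll1 over Dynll2 and 1.53 for Kif5a over Klc1. Dctn1 over Dync1h1 was -0.038 to 0.035 in single libraries and 1.68 with coding transcripts alone, where Kif21a over Kif21b was 2.40 and Dync1h1 over Dync2h1 was 4.01. Members beyond 0.5 between libraries numbered 0 with library size alone, 0 with TPM and a pseudocount of 1, and 5 with no filter (with Kif22, Kif23, Kif27 and Kif28, all below 1 TPM, and a background of 14.5%). The class median reversed to -0.10 for dynactin and -0.19 for ciliary kinesins with TPM, to -0.069 for ciliary kinesins with no filter and to 0.078 for other kinesins at 5 TPM or more. With TPM the median of all protein-coding genes was -0.12, below that of dynactin. Genes with a leading transcript under 60% numbered 11 to 13 in single libraries. Transport kinesins held 29.7 to 31.3% of the members' TPM in single libraries and 33.2% with coding transcripts alone. Rescaling TPM to nuclear protein-coding genes changes no share, by construction, and moves the sums to 2601 TPM for transport and 12.4 TPM for mitotic kinesins. Except where a scale is named, the cause was not tested. With 2 libraries, each SD has 1 degree of freedom. Depth limits the low genes, with 30 to 283 counts a library in mitotic kinesins, 33 and 29 in Dynlrb2, and 15 and 4 in Kif28.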

Other observations

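Lists of other cell types not described above also differed between the libraries. All 5 blood genes were higher in replicate 2 (median log2 ratio 0.46), as were the 4 ependymal genes that averaged 1 TPM or more (median 0.34). The oligodendrocyte precursor list had a median of -0.23 with 3 of 5 genes lower, the endothelial list -0.12 with 5 of 7 lower, and the astrocyte list 0.08 with 2 of 8 lower. The proliferation list had a median of 0.10 with 2 of 10 genes lower, and the neuroblast list 0.10 with 2 of 7 lower. The 45 motor adaptors and partners had a median of 0.02 with 19 of 44 lower. Of the members below 1 TPM, Kif27 had 287 counts in replicate 1 and 160 in replicate 2, Kif22 had 146 and 83, and Kif23 had 92 and 108.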
